A study of Mus musculus with 9 samples.

Results

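The genes followed here encode the machinery that moves newly made proteins into the endoplasmic reticulum (ER) and between the ER and the Golgi apparatus. They were chosen by gene symbol: the signal recognition particle (SRP) and its receptor, the Sec61 channel with Sec62 and Sec63, the translocon-associated protein complex (TRAP, the Ssr genes), the signal peptidase complex, the COPII coat with Sec16, the p24 cargo receptors (the Tmed genes), the Sec22 SNAREs, the COPI coat and the TRAPP tethers. The rule found 73 of the 16509 genes measured, and 70 of them had enough counts to be tested. The other 3 were Sec31b, which reached at most 0.692 CPM in any library (CPM are counts set to the same total in each library), Tmed10-ps, which reached 0.168 CPM, and Tmed6, which reached 0.0457 CPM.

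In this pathway, SRP binds a signal sequence as it leaves the ribosome and docks at its receptor, the chain passes through the Sec61 channel, and signal peptidase removes the signal. COPII vesicles then carry cargo from the ER towards the Golgi, COPI vesicles carry escaped proteins and receptors back, p24 proteins ride in both, and TRAPP complexes help vesicles attach. Cells use this machinery for nearly all secreted and membrane proteins, and several of its genes are known targets of the unfolded protein response.

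RNA came from MC38 cells, an established mouse colon carcinoma line, and was measured in 9 libraries, 3 in each of 3 groups. Ctrl cells received only the vehicle, which the sample labels give as DMSO and the study's methods as PBS. Cu-Cys cells received the coordination product of copper and cystine. Cadict cells received a nanodrug that holds copper, cystine and glucose oxidase (GOx, an enzyme that consumes glucose) and carries GE11, a peptide that targets EGFR, on DSPE-mPEG. The dose and the length of treatment of these libraries are not given in the sources used here, and the study counts 3 biological replicates per group without saying whether each was a separate culture, so the p-values measure the spread between these libraries, which may be technical. All groups share this single line. Of 8 colon epithelial markers, Krt20 and Cdx2 were not among the genes measured. Of the rest, 2 were over 1 CPM as a group mean in Ctrl, 1 in Cu-Cys and 3 in Cadict cells, led by Cdh1 and Krt19. The summed level of the measured ones was 5.32 to 6.83, 3.97 to 4.38 and 24 to 26.1 CPM. Epcam was at 0 in Ctrl and Cu-Cys cells. The 4 fibroblast markers summed to 447 to 489, 210 to 217 and 74.1 to 84.7 CPM in the same order, led by Col3a1. Of 5 leukocyte markers, Cd3e and Adgre1 were not among the genes measured. The rest, of which only Cd68 was over 1 CPM, summed to 3.05 to 3.24, 2.33 to 2.77 and 15.6 to 18.2 CPM, and 2 endothelial markers to at most 2.44 CPM. The part of these shifts in the results below was not tested.

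Library totals lay between 17905771 and 18293056 counts, and the limit set by a count of 0 (3 counts) was 0.164 to 0.168 CPM before scaling. All other levels in CPM, above and below, are scaled by edgeR's TMM method, which sets libraries on a scale where most genes compare. Its factors were 0.640 to 0.665 for Cadict and 1.21 to 1.27 for the other libraries, and the 10 most abundant genes took 4.72 to 5.24% of the counts in Ctrl or Cu-Cys libraries, compared with 10.7 to 11.2% with Cadict. With library totals in place of TMM, the median over all genes in Cadict against Ctrl dropped by 0.95 on the log2 scale, and with DESeq2 size factors it rose by 0.12. Of all genes called in that comparison, 43.3% were higher with TMM, 11.9% with library totals and 48.3% with DESeq2 size factors. A direction is therefore given below relative to the other genes, with the flips named. Among the Cadict libraries, replicate 2 stood apart: its counts differed from those of replicates 1 and 3 by 14.7 and 23.1 chi-square units per degree of freedom, against 3.63 between replicates 1 and 3. In bulk RNA, fewer cells of a kind and less RNA per cell cannot be told apart.

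Most of these genes differed between Cadict and Ctrl cells, as did most of all tested genes, and more of them lay above the all-gene median than below it. A gene was called where its fold change was at least 2 and its adjusted p (edgeR quasi-likelihood test, Benjamini-Hochberg over all tested genes) at most 0.001. Against Ctrl cells, 16 members were called higher and 6 lower, which is 22.9% and 8.57% of those tested, where 20.7% of all 11949 tested genes were called higher and 27.1% lower. The share called higher was thus near that of all genes, and the share called lower was below it. With an adjusted p of 0.05 or less and no limit on the fold, which is what "rose" and "fell" mean below, 45 members rose and 23 fell, against 40.6% of all tested genes that rose and 47.1% that fell. The members' median log2 fold change was 0.52, and the median over all genes was -0.13. The gap of 0.65 between these medians was 0.64 with library totals and 0.65 with DESeq2 size factors, and 47 of the 70 tested members lay above the all-gene median under each scaling. Another scaling shifts all genes by nearly the same amount, so this gap and this count could hardly change. On library totals themselves the sign of the members' median turned to -0.43, with 2 members called higher and 24 called lower, and with DESeq2 size factors 20 were called higher and 6 lower, Cope, Tmed4, Tmed5 and Trappc6a being added. The 16 members called higher were also the 16 that stayed above 0 on library totals, and the 6 called lower stayed below 0. The shift to library totals is downward and less than 2-fold, so called members had to keep their direction.

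The members' summed share of all counts, which is on the scale of library totals, was 0.838% ± 0.00821 (SD, n = 3) in Ctrl, 0.812% ± 0.0109 in Cu-Cys and 0.648% ± 0.0163 in Cadict cells. On that scale the median log2 fold change in Cadict against Ctrl was -1.08 over all tested genes and -0.43 over the members. The shares below are therefore not a fall relative to other genes. All 3 Cadict libraries lay below all Ctrl libraries. The fall was uneven among the branches: the translocon genes went from 0.355% to 0.294%, the p24 genes from 0.137% to 0.124%, the COPI genes from 0.138% to 0.101%, the COPII genes from 0.135% to 0.0883% and the TRAPP genes from 0.0605% to 0.0317%.

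By branch, the 25 translocon genes (SRP, Sec61, TRAP and signal peptidase) had a median log2 fold change of 0.76 in Cadict against Ctrl. Of them, 9 were called higher and 0 lower, or 36% and 0%, next to 20.7% and 27.1% of all tested genes. There were 21 that rose and 4 that fell, or 84% and 16%, next to 40.6% and 47.1% of all tested genes. The COPI genes had a median of 0.47, the COPII genes -0.10 and the TRAPP genes -0.06. Relative to the all-gene median these were 0.88, 0.60, 0.03 and 0.07, and both other scalings gave the same values to the second decimal. As a scaling shifts all genes nearly alike, these distances could hardly change. On library totals the 4 medians were -0.20, -0.48, -1.05 and -1.01, and with DESeq2 size factors those of COPII and TRAPP lay just above 0. The spread inside a class differed within both the coats and the translocon. COPII members ran from -2.95 to 1.40, TRAPP members from -2.44 to 1.70 and COPI members from -0.35 to 0.91. Of the translocon classes, signal peptidase ran from -0.87 to 2.02, SRP and its receptor from -0.42 to 1.92 and TRAP from 0.20 to 2.06. The 6 Sec61 translocon genes lay between 0.58 and 1.34.

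**Figure D1:**
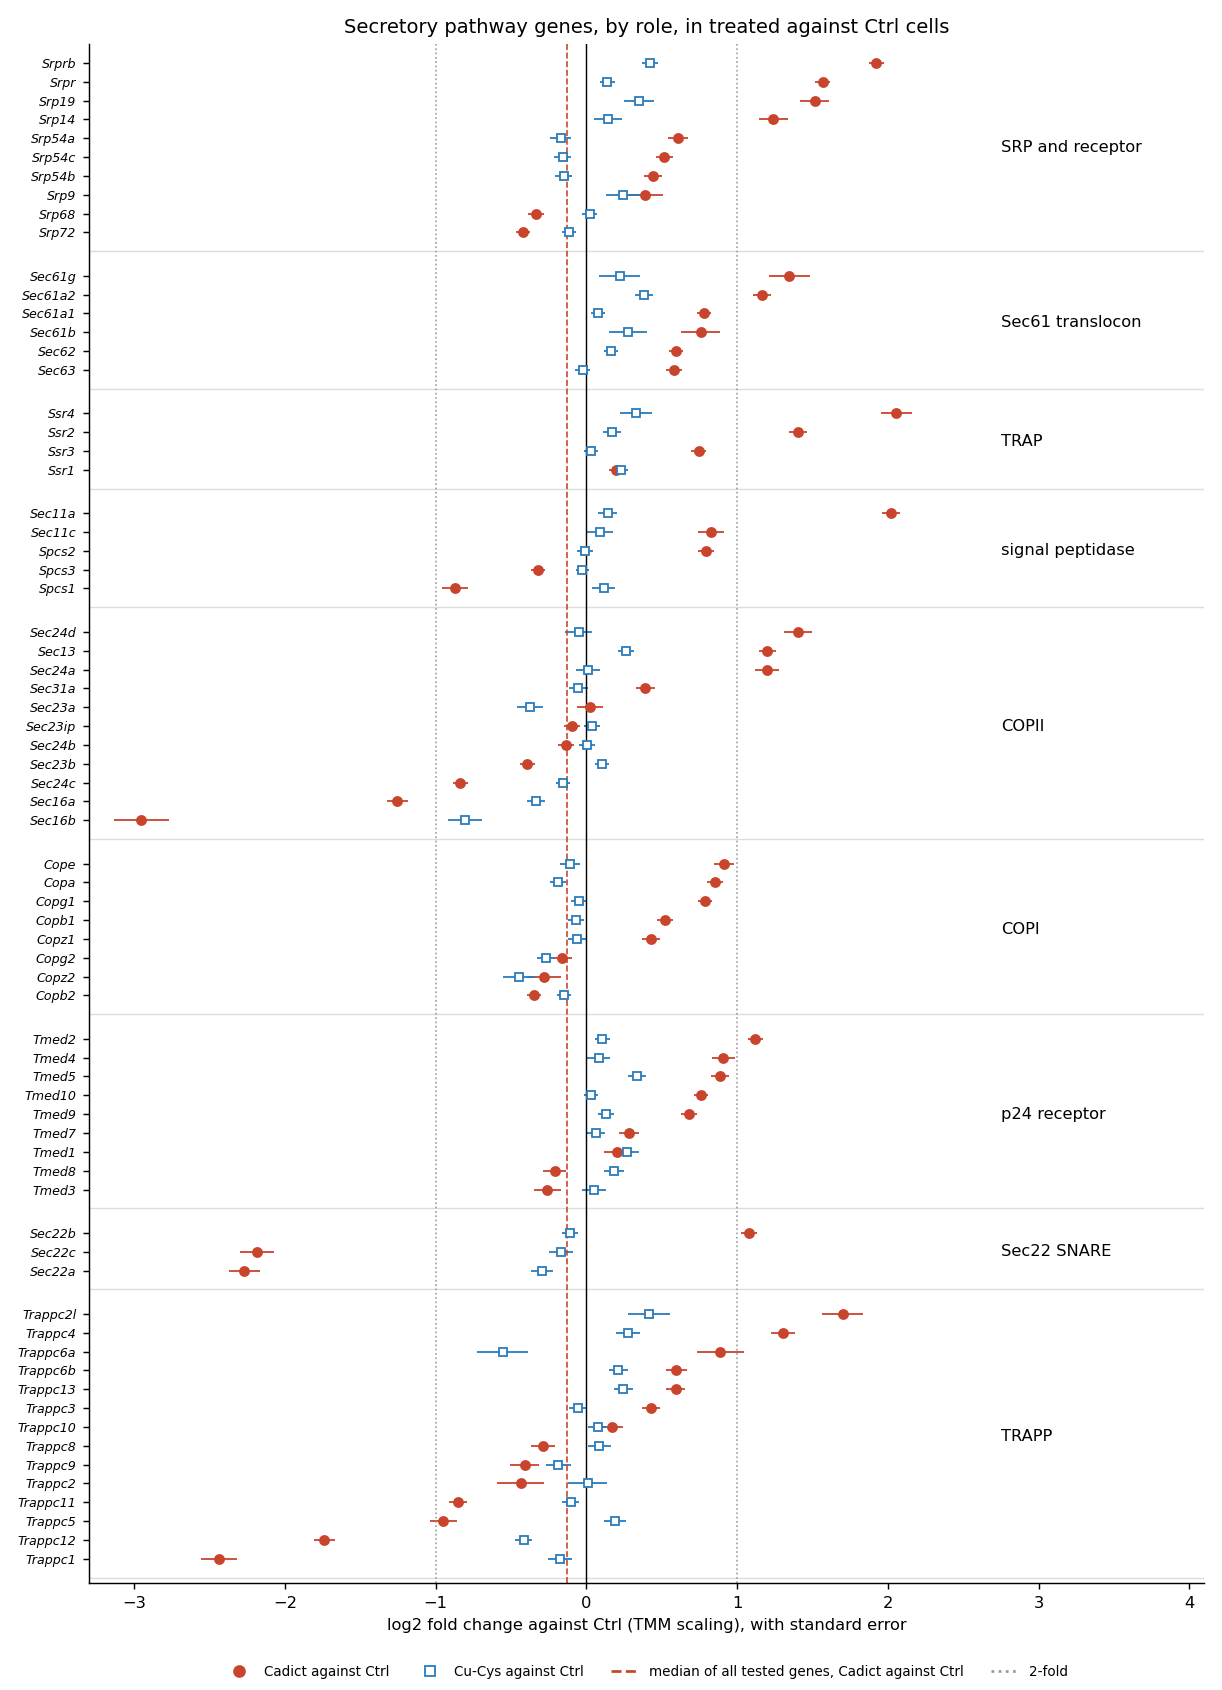
Log2 fold change against Ctrl (TMM scaling, horizontal axis) of the 70 tested members, one per line and grouped by role, with standard errors. Red circles are Cadict and open blue squares Cu-Cys. Cadict values run from -2.95 (Sec16b) to 2.06 (Ssr4), and Cu-Cys values from -0.81 to 0.42. On library totals 16 of the 46 members to the right of 0 for Cadict would stay there.

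Per length and within a library, the deposited TPM (a level per transcript length and library) compare levels between genes. In Ctrl cells the highest TPM was that of Tmed2, a p24 receptor, at 545 ± 17.0 (SD, n = 3), followed by the TRAP subunit Ssr3 at 440 ± 11.4. Next came Sec61b at 317 ± 28.1 and Ssr2 at 291 ± 3.71 TPM, which did not differ beyond their spread. The lowest tested members were Trappc9, Tmed8 and Sec16b at 7.95 ± 1.03, 5.66 ± 0.399 and 3.68 ± 0.133 TPM. Sec61a1, the pore subunit, stood at 190 ± 7.12 TPM, above its paralog Sec61a2 at 20.8 ± 0.452.

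The receptor of SRP responded more than most of the particle. Srprb (gene ID 20818), the membrane-anchored receptor subunit, measured 39.2, 40.1 and 39.5 CPM in the Ctrl libraries, 52.6, 52.6 and 53.9 CPM with Cu-Cys, and 149, 156 and 146 CPM with Cadict. The 3 groups did not overlap, and Cadict cells stood highest. The log2 fold change of Srprb was 1.92 ± 0.05 (SE, n = 3; adjusted p = 1.4e-14) against Ctrl, and 0.97 on library totals. About 19.9% of its 50-base windows also occur in Gm20425, an annotated gene that overlaps it on the same strand, so part of its counts may be shared. Srpr, the other subunit of the receptor, had means of 127 CPM in Ctrl and 377 CPM in Cadict cells and a log2 fold change of 1.57 (0.62 on library totals). Of its 50-base windows, 17.7% also occur in other genes, mostly in Gm6733.

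Within the particle, Srp19 and Srp14 were called higher, at log2 fold changes of 1.52 and 1.24 (0.56 and 0.29 on library totals). Srp72 and Srp68, which bind each other on the SRP RNA, lay on the other side: Srp72 measured 155, 153 and 154 CPM in Ctrl and 115, 118 and 112 CPM in Cadict libraries, with no overlap, and fell by 0.42 on the log2 scale, and Srp68 fell by 0.33. The log2 ratio of Srprb to Srp72 counts, which no scaling can change, was -1.96 ± 0.03 (SD, n = 3) in Ctrl, -1.43 ± 0.06 in Cu-Cys and 0.38 ± 0.01 in Cadict cells, a 5.08-fold shift from Ctrl to Cadict. With 3 libraries against 3, the smallest two-sided p that an exact permutation test of such a ratio can give is 0.10. Srprb and Srp72 are the highest and lowest genes of this class in Cadict against Ctrl, so a wide shift follows from that choice of pair. Srp9 and Srp14, which form a pair in the particle, also parted, the log2 ratio of Srp9 to Srp14 moving from 0.60 ± 0.16 to -0.27 ± 0.16. The 3 Srp54 genes, which encode the subunit that binds the signal, share 70.5 to 93.9% of their 50-base windows, so their counts cannot be separated with confidence. Their sum was 239 ± 5.25 CPM (SD, n = 3) in Ctrl, 214 ± 8.59 in Cu-Cys and 336 ± 3.40 in Cadict cells. On library totals the direction in Cadict against Ctrl turned, with log2 fold changes of -0.34 (Srp54a), -0.51 (Srp54b) and -0.44 (Srp54c).

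All 6 genes of the Sec61 translocon rose with Cadict on the TMM scale, where 40.6% of all tested genes rose. On library totals only Sec61g and Sec61a2 stayed above 0. Sec61a1 (gene ID 53421) measured 239, 250 and 234 CPM in Ctrl, 260, 245 and 258 CPM in Cu-Cys and 418, 412 and 412 CPM in Cadict libraries. Ctrl and Cu-Cys libraries overlapped and Cadict libraries stood above both. The log2 fold change was 0.78 ± 0.05 (SE; adjusted p = 2.4e-10) against Ctrl, and -0.17 on library totals. Sec61a2, whose role beside Sec61a1 is less well known, gained on its paralog: its share of the TPM of the pair was 9.90% ± 0.409 (SD, n = 3) in Ctrl, 12.1% ± 0.525 in Cu-Cys and 13.9% ± 0.337 in Cadict cells. For Sec61a2, 19.9% of the exon bases overlap a gene on the other strand, and no source says whether strand was used in counting.

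The small channel subunits Sec61g and Sec61b varied most with Cadict replicate 2 among the channel genes. Sec61g measured 28.1, 31 and 29.4 CPM in Ctrl and 65.8, 96.9 and 62.5 CPM in Cadict libraries, the middle value being replicate 2. Its log2 fold change was 1.34 ± 0.14 against Ctrl and 1.12 without that library. Sec61b had 29.8, 33.6 and 35.4 CPM in Ctrl and 51.9, 70.5 and 44.8 CPM in Cadict libraries, with log2 fold changes of 0.76 with and 0.55 without replicate 2, and -0.20 on library totals. For Sec61b 17.4% and for Sec61g 14.8% of the 50-base windows also occur in other genes, mostly in Gm10320 and Gm10177. The channel partners Sec62 and Sec63 rose by 0.59 and 0.58 on the log2 scale, and lay at -0.36 and -0.37 on library totals.

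Of the 4 TRAP subunits, which sit beside the channel, Ssr4 and Ssr2 were called higher. Ssr4 (gene ID 20832) measured 28.1, 27.4 and 28.6 CPM in Ctrl, 32.7, 36.4 and 36.5 CPM in Cu-Cys and 114, 140 and 96.9 CPM in Cadict libraries. The groups did not overlap. Its log2 fold change of 2.06 ± 0.10 (SE; adjusted p = 2.3e-11) was the highest of all members, and was 1.91 without Cadict replicate 2. Ssr1 measured 344, 353 and 354 CPM in Ctrl and 394, 406 and 405 CPM in Cadict libraries, a log2 fold change of 0.20 that turned to -0.76 on library totals. Ssr3 had 0.74 and -0.21 on these scales. The count ratio of Ssr4 to Ssr1 was thus 3.59-fold higher in Cadict than in Ctrl cells.

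The signal peptidase genes split. Sec11a, a catalytic subunit (gene ID 56529), measured 44.1, 43.5 and 48.3 CPM in Ctrl, 49.7, 51.3 and 48.9 CPM in Cu-Cys and 177, 197 and 178 CPM in Cadict libraries, a log2 fold change of 2.02 ± 0.06 (SE; adjusted p = 5.7e-14). Cadict libraries lay above all others, and this was 1 of the 2 members still called higher on library totals, with Ssr4. The other catalytic subunit, Sec11c, had a log2 fold change of 0.83 on the TMM scale and -0.13 on library totals. Among the accessory subunits, Spcs1 measured 45.8, 48.4 and 54.2 CPM in Ctrl and 25.2, 30.2 and 25.5 CPM in Cadict libraries and fell by 0.87 on the log2 scale. Spcs3 also fell, by 0.32, and Spcs2 rose by 0.79 (-0.16 on library totals). Spcs1 exons overlap a gene on the other strand over 16.3% of their bases. The count ratio of Sec11a to Spcs1 was 7.43-fold higher in Cadict than in Ctrl cells, while the Cu-Cys libraries overlapped the Ctrl libraries in this ratio.

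**Figure D2:**
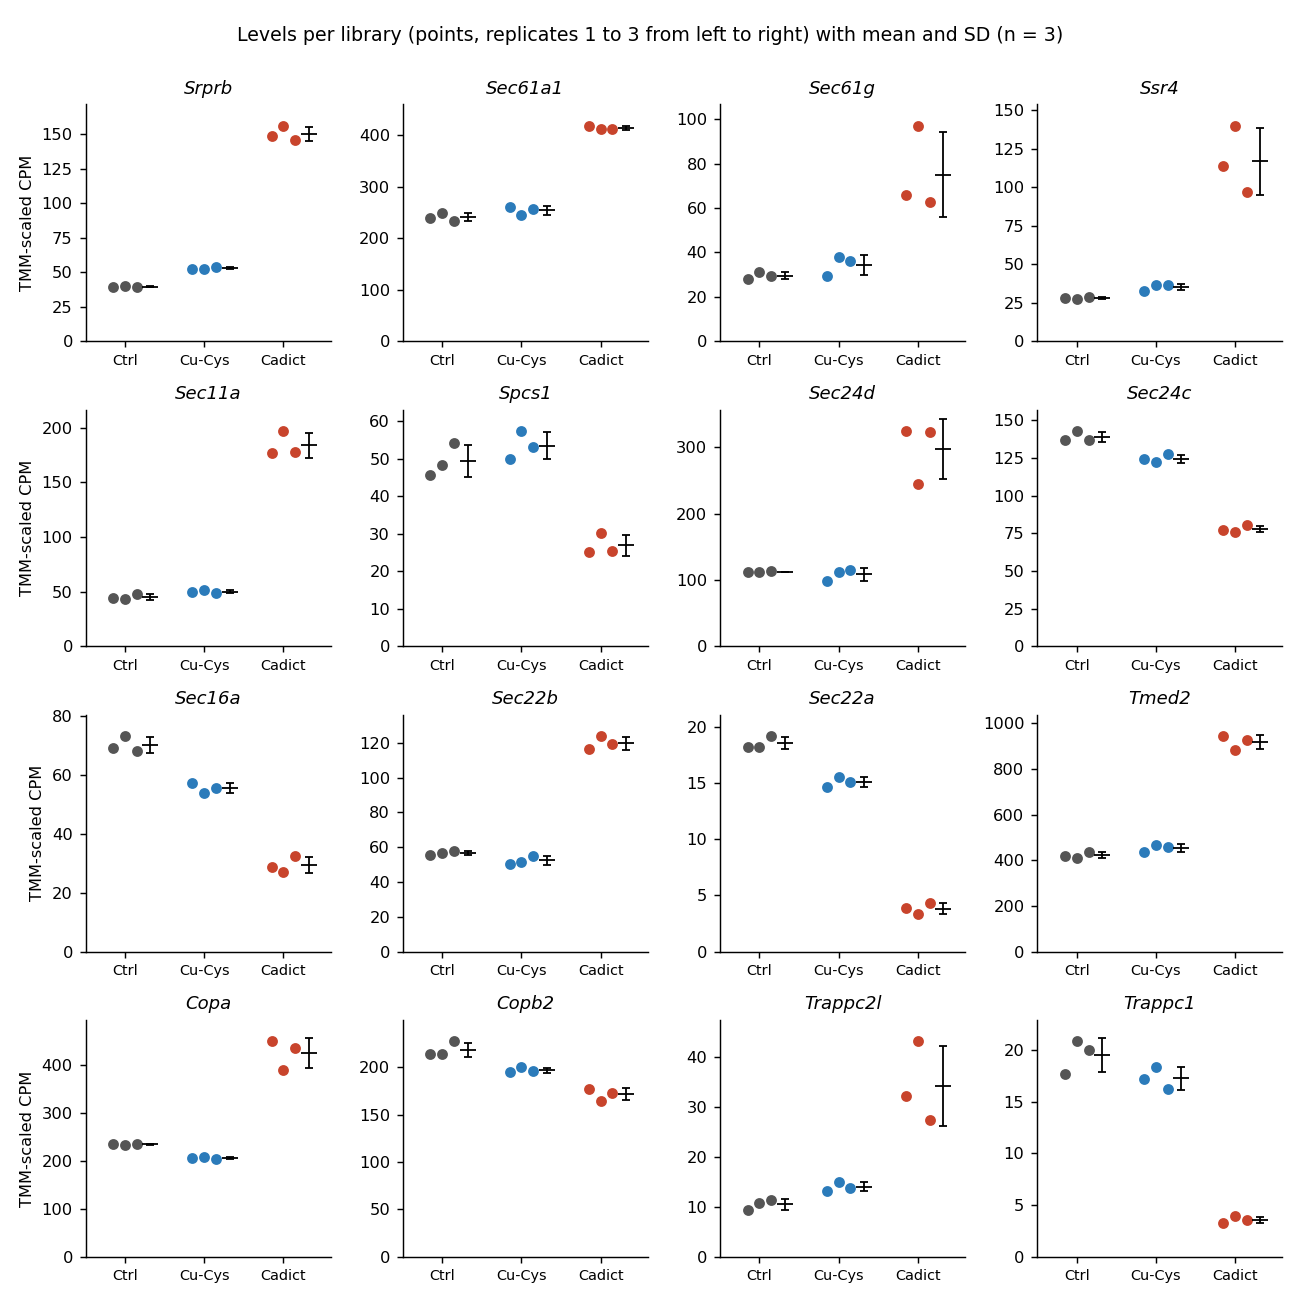
TMM-scaled CPM (vertical axes, each from 0) of 16 members in each library, with the group mean and SD (n = 3) beside the points. Cadict libraries lie above all Ctrl libraries for 10 of the genes, such as Srprb and Ssr4, and below them for Spcs1, Sec24c, Sec16a, Sec22a, Copb2 and Trappc1. Most of the 16 are the highest or lowest member of a class in this comparison, so their separation follows largely from the choice. At an adjusted p of 0.05 or less (edgeR quasi-likelihood test), 40.6% of all tested genes rose and 47.1% fell. On library totals Sec61a1 and Copa would have Cadict means below those of Ctrl.

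In the COPII coat, the paralogs and partners moved apart. Sec24 proteins pick the cargo of the vesicle, and of the 4 Sec24 genes Sec24d and Sec24a were called higher and Sec24c fell, while Sec24b, at -0.14 (adjusted p = 0.029), lay on the all-gene median. Sec24d (gene ID 69608) measured 112, 112 and 113 CPM in Ctrl, 98.0, 113 and 115 CPM in Cu-Cys and 325, 245 and 323 CPM in Cadict libraries, a log2 fold change of 1.40 ± 0.09 (SE; adjusted p = 5.3e-10). Replicate 2 was the lowest of the Cadict libraries here, and without it the value was 1.53. Sec24c measured 137, 143 and 137 CPM in Ctrl, 124, 122 and 127 CPM in Cu-Cys and 77.0, 76.2 and 80.4 CPM in Cadict libraries, and fell by 0.84 on the log2 scale.

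As a share of the family's TPM, Sec24d went from 32.0% ± 0.231 (SD, n = 3) in Ctrl to 57.7% ± 2.33 in Cadict cells, Sec24c from 34.1% ± 0.698 to 13.2% ± 1.32, Sec24b from 25.9% ± 0.475 to 16.5% ± 1.14 and Sec24a from 8.01% ± 0.0488 to 12.6% ± 0.149. In Cu-Cys cells the shares were 32.2%, 32.0%, 27.3% and 8.44%, overlapping those in Ctrl cells for all but Sec24c, which lay lower. The log2 count ratio of Sec24d to Sec24c was -0.30 ± 0.04 in Ctrl, -0.20 ± 0.12 in Cu-Cys and 1.92 ± 0.21 in Cadict cells, a 4.68-fold difference between Cadict and Ctrl, and 5.09-fold without Cadict replicate 2.

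Sec23 proteins form the inner coat with Sec24. Sec23a measured 83.4, 79.7 and 84.2 CPM in Ctrl, 58.0, 67.4 and 65.4 CPM in Cu-Cys and 87.3, 70.0 and 94.0 CPM in Cadict libraries. Cu-Cys cells were the lowest group for this gene (log2 fold change -0.37 ± 0.08, SE, adjusted p = 0.0024), while Cadict and Ctrl libraries overlapped (0.02 on the TMM scale and -0.93 on library totals). Sec23b fell by 0.39 with Cadict. The share of Sec23a in the TPM of the pair was accordingly 36.2% ± 0.746 (SD, n = 3) in Ctrl, 28.9% ± 1.22 in Cu-Cys and 42.6% ± 3.71 in Cadict cells.

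Within COPII, the scaffold of ER exit sites fell most. Sec16a measured 69.2, 73.2 and 68.2 CPM in Ctrl, 57.2, 53.9 and 55.7 CPM in Cu-Cys and 28.8, 27.0 and 32.4 CPM in Cadict libraries, so that the groups were ordered without overlap. It fell by 1.25 ± 0.07 (SE; adjusted p = 6.6e-11) on the log2 scale with Cadict and by 0.34 with Cu-Cys. Sec16b, the less abundant paralog, had means of 7.32 CPM in Ctrl, 4.18 in Cu-Cys and 0.938 in Cadict cells, with log2 fold changes of -2.95 and -0.81 against Ctrl. Of the outer coat, Sec13, which also serves in nuclear pores, was called higher at 1.20 (0.25 on library totals), whereas Sec31a, its partner in the cage, had 0.39 (-0.56 on library totals). Sec23ip, a protein that binds Sec23, had -0.10 (adjusted p = 0.11), close to the all-gene median. The count ratio of Sec13 to Sec16a was 5.50-fold higher in Cadict than in Ctrl cells. Sec16a was the lowest COPII gene with a mean of at least 10 CPM, and Sec13 was chosen after its values were seen. A wide gap therefore follows largely from the choice of pair.

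Promoter windows from RefSeq (GRCm38.p6, 250 bases before to 50 after the start site) were found for 60 of the 73 genes, as 64 windows. Searched on both strands for 3 elements of the ER stress response, these windows held the unfolded protein response element TGACGTGG in 5 cases, or 7.81%, against 0.676% of all 32851 windows of the same length. The element ERSE (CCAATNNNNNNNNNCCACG) was in 0 of the 64 and in 0.119% of all windows, and ERSE-II (ATTGG, 1 base of any kind, CCACG) in 0 and 0.0365%. All 5 matches were in coat genes: Copb1 and Copb2 of COPI and Sec16b, Sec23a and Sec24d of COPII. The core CCACG is common to the 3 elements. A match is a description of letters and not a bound site. The set of all windows was not limited to genes measured or tested here, nor matched to the members for base content. What part this has in the gap between 7.81% and 0.676% was not tested. The stretch from 60 bases before to 20 bases after the start site is printed for these 5 genes, read along each gene's strand, since they are the members that hold the element. Capitals mark the element (CCACGTCA where it lies on the opposite strand).
Sec24d, chr3:123267436-123267515 (+): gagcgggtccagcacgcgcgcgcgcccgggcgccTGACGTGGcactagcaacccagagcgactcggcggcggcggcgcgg
Sec23a, chr12:59011998-59012077 (-): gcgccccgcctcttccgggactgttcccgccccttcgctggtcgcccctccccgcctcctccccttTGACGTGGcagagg
Sec16b, chr1:157506736-157506815 (+): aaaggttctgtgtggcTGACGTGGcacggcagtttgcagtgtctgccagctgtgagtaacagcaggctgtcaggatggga
Copb1, chr7:114254661-114254740 (-): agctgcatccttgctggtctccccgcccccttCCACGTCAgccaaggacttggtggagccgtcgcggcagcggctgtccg
Copb2, chr9:98563671-98563750 (+): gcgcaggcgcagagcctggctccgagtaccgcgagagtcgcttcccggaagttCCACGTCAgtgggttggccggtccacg
The 5 genes that hold the element had log2 fold changes of 1.40 (Sec24d), 0.52 (Copb1), 0.02 (Sec23a), -0.35 (Copb2) and -2.95 (Sec16b) in Cadict against Ctrl, which became 0.45, -0.43, -0.93, -1.30 and -3.90 on library totals.

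The COPI coat, a complex named coatomer that assembles as a unit, had 0 of 8 members called in Cadict against Ctrl (1, Cope, with DESeq2 size factors). Of all tested genes, 20.7% were called higher and 27.1% lower. In the coat 5 rose (Cope, Copa, Copg1, Copb1 and Copz1, from 0.91 down to 0.43) and 3 fell (Copb2, Copz2 and Copg2, from -0.35 to -0.16). That is 62.5% and 37.5%, next to 40.6% and 47.1% of all tested genes. On library totals all 8 members lay below 0. The delta subunit of the coat, Arcn1, is left out by the symbol rule and fell by 0.81 on the TMM scale. Copa measured 235, 234 and 236 CPM in Ctrl, 205, 208 and 205 CPM in Cu-Cys and 449, 390 and 435 CPM in Cadict libraries, and Copb2 measured 214, 213 and 227, then 194, 200 and 196, then 177, 165 and 173 CPM. Cadict libraries were thus the highest for Copa and the lowest for Copb2, without overlap in either. The count ratio of Copa to Copb2 was 2.3-fold higher in Cadict than in Ctrl cells, and Cu-Cys libraries overlapped Ctrl libraries in it. Copb2 was the lowest COPI member and Copa was chosen after its values were seen, so the gap between Cadict and Ctrl follows largely from that choice.

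Within COPI, other pairs also shifted. Copb1 and Copb2, which encode the beta and beta-prime subunits and are not paralogs, went from 43.5% ± 0.203 and 56.5% of their joint TPM in Ctrl to 58.5% ± 0.579 and 41.5% in Cadict cells. Of the paralogs Copg1 and Copg2, the share of Copg2 fell from 17.5% ± 1.02 in Ctrl to 15.4% ± 0.577 in Cu-Cys and 9.86% ± 0.337 in Cadict cells (SD, n = 3). Copz2 had 31.7% ± 1.27, 26.2% ± 1.52 and 21.8% ± 2.49 of the Copz pair in the same order. For Copg2, 17.8% of the exon bases overlap a gene on the other strand.

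**Figure D3:**
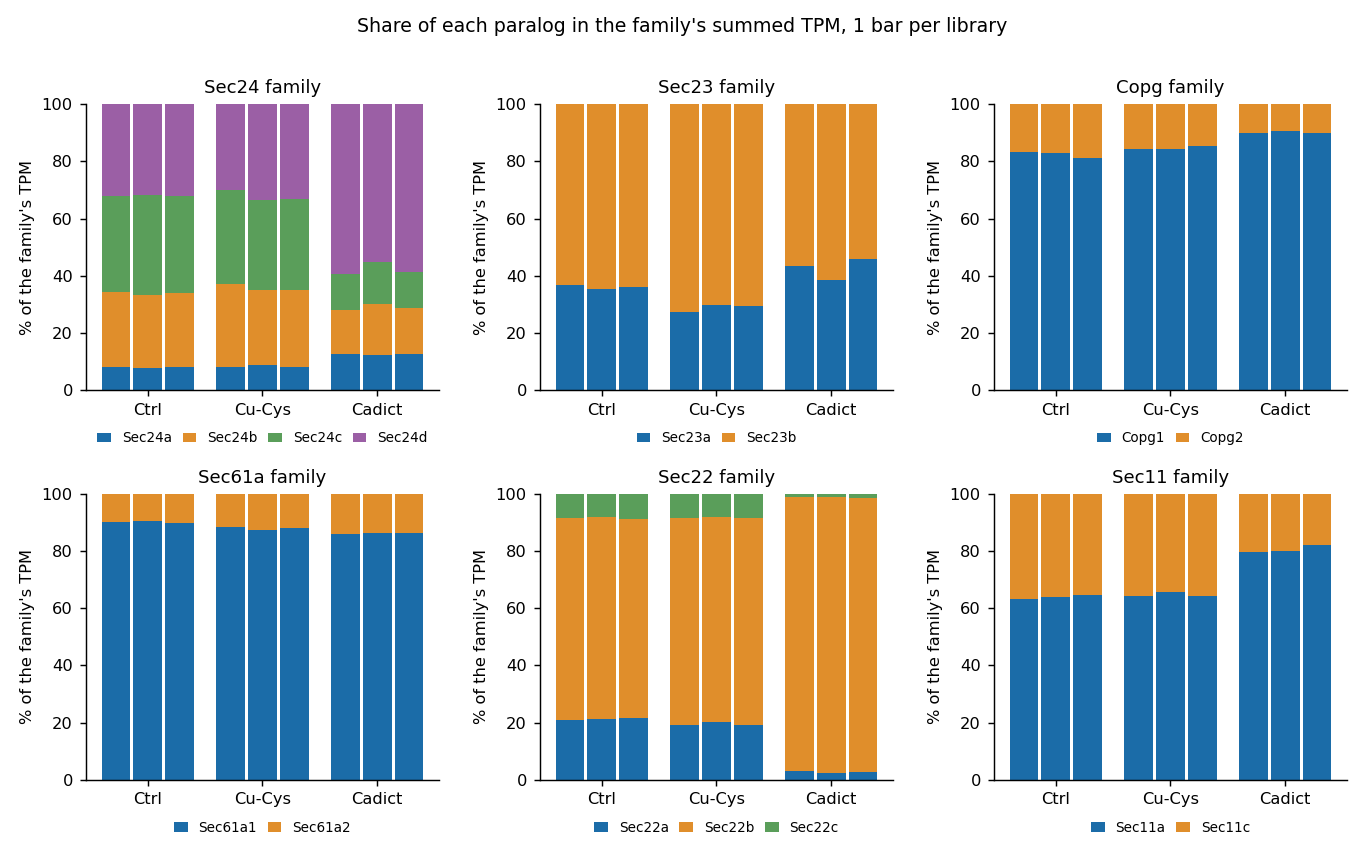
Share of each paralog in its family's summed TPM (vertical axes, percent), 1 bar per library and 3 per group, for 6 families. In Cadict libraries Sec24d takes 55.1 to 59.5% of the Sec24 family, against 31.8 to 32.2% in Ctrl libraries, and Sec22a and Sec22c shrink to at most 2.95% and 1.44%.

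Of the Sec22 proteins, Sec22b is the SNARE that acts between the ER and the Golgi. It measured 55.6, 56.4 and 57.6 CPM in Ctrl, 50.4, 51.6 and 55.2 CPM in Cu-Cys and 116, 124 and 119 CPM in Cadict libraries, a log2 fold change of 1.08 ± 0.05 (SE; adjusted p = 1.9e-11; 0.13 on library totals). Its relatives went the other way. Sec22a measured 18.2, 18.2 and 19.1 CPM in Ctrl, 14.7, 15.5 and 15.1 CPM in Cu-Cys and 3.91, 3.31 and 4.28 CPM in Cadict libraries and fell by 2.27 ± 0.10 on the log2 scale, and Sec22c fell by 2.19. The Cadict libraries lay far below the rest for both relatives. Counts of Sec22b relative to Sec22a were 10.3-fold higher in Cadict than in Ctrl cells, and relative to Sec22c 9.72-fold higher.

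Among the 9 tested p24 receptors, 7 rose and 2 fell with Cadict, or 77.8% and 22.2%, next to 40.6% and 47.1% of all tested genes. Only Tmed2 was called higher, or 11.1%, and 0 were called lower, next to 20.7% and 27.1% of all tested genes. With DESeq2 size factors Tmed4 and Tmed5 were called higher as well. Tmed2 (gene ID 56334) measured 418, 410 and 437 CPM in Ctrl, 436, 469 and 456 CPM in Cu-Cys and 942, 883 and 926 CPM in Cadict libraries, a log2 fold change of 1.12 ± 0.05 (SE; adjusted p = 5.8e-12). It was the only p24 gene above 0 on library totals (0.17). Its partner Tmed10 had 0.76, Tmed4 0.91, Tmed5 0.89 and Tmed9 0.68 on the TMM scale. The rest of those that rose, Tmed7 and Tmed1, had 0.28 and 0.20, and Tmed8 fell by 0.21. Tmed3 measured 26.6, 27.5 and 27.0 CPM in Ctrl and 23.7, 25.2 and 19.0 CPM in Cadict libraries and fell by 0.26. For Tmed2, 22% of the 50-base windows also occur in other genes, mostly in Gm10698.

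TRAPP genes rose and fell in equal number with Cadict on the TMM scale. There were 7 each, or 50%, next to 40.6% and 47.1% of all tested genes. On library totals 2 lay above 0. Trappc2l and Trappc4, of the core complex, were called higher, and Trappc1, also of the core, and Trappc12, of the TRAPPIII form, were called lower. That is 14.3% in each direction, next to 20.7% and 27.1% of all tested genes. Trappc1 (gene ID 245828) measured 17.6, 20.8 and 20 CPM in Ctrl, 17.2, 18.4 and 16.2 CPM in Cu-Cys and 3.31, 3.92 and 3.53 CPM in Cadict libraries, and fell by 2.44 ± 0.12 (SE; adjusted p = 1.7e-11) on the log2 scale. Ctrl and Cu-Cys libraries overlapped and the Cadict libraries lay well below both. Trappc2l measured 9.34, 10.8 and 11.4 CPM in Ctrl, 13.2, 15.0 and 13.8 CPM in Cu-Cys and 32.2, 43.1 and 27.4 CPM in Cadict libraries, a log2 fold change of 1.70 ± 0.14 (1.5 without Cadict replicate 2).

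The count ratio of Trappc2l to Trappc1 was 17.4-fold higher in Cadict than in Ctrl cells, and 1.51-fold higher in Cu-Cys than in Ctrl cells, without overlap in either case. As these are the highest and lowest TRAPP genes in Cadict against Ctrl, a wide gap in that comparison follows from the choice of pair. Trappc12 measured 36.7, 36.0 and 36.3 CPM in Ctrl, 26.6, 27.8 and 27.2 CPM in Cu-Cys and 10.9, 11.1 and 10.7 CPM in Cadict libraries, so that its groups were ordered without overlap. Its log2 fold change was -1.74 ± 0.07 with Cadict and -0.42 ± 0.05 with Cu-Cys. Trappc6a went from 38.9% of the TPM of the Trappc6 pair in Ctrl to 27.3% in Cu-Cys and 43.4% in Cadict cells, with SDs of 2.59, 4.61 and 5.21 (n = 3), and the Cadict libraries overlapped those of Ctrl in this share. Trappc3 had a log2 fold change of 0.43 (-0.53 on library totals), and Trappc2, at 8.16 CPM in Ctrl, fell by 0.43. Of the subunits that mark the larger TRAPP forms, Trappc13 and Trappc10 had 0.59 and 0.17 (both below 0 on library totals), and Trappc8, Trappc9 and Trappc11 fell by 0.29, 0.41 and 0.85, while the core subunit Trappc5 fell by 0.95.

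With Cu-Cys no member reached a 2-fold change. Against Ctrl, 0 members were called higher and 0 lower by edgeR, as also by DESeq2's Wald test, where 0.167% of all tested genes were called higher and 1.47% lower. At an unadjusted p under 0.05, 22 members were higher and 17 lower, or 31.4% and 24.3%, next to 26.5% and 26.0% of all tested genes. With an adjusted p of 0.05 or less, 17 rose and 13 fell, which is 24.3% and 18.6% of those tested, next to 22.6% and 22.4% of all tested genes. The median was 0.03 over the members and 0.01 over all genes on the log2 scale. The number that rose ranged from 9 to 24 when single libraries were left out, being 9 without Ctrl replicate 1, Cu-Cys replicate 2 or Cu-Cys replicate 3 and 11 without Ctrl replicate 2.

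The smallest adjusted p-values with Cu-Cys belonged to Srprb (log2 fold change 0.42 ± 0.05, SE, adjusted p = 1.5e-05), Trappc12 (-0.42, adjusted p = 3.1e-05) and Sec16b (-0.81 ± 0.11, adjusted p = 5.1e-05), by edgeR's quasi-likelihood test. All 8 COPI genes lay below 0 with Cu-Cys under each of the 3 scalings, from -0.45 (Copz2) to -0.05 (Copg1), and 4 of them fell: Copa, Copb2, Copg2 and Copz2. All 9 tested p24 genes lay above 0 on the TMM scale, from 0.03 to 0.34, with 3 that rose, and on library totals Tmed3, Tmed7 and Tmed10 were slightly below 0.

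Between the treated groups, 17 members were called higher in Cadict than in Cu-Cys cells and 6 lower, or 24.3% and 8.57%, where 18.6% of all tested genes were called higher and 23.6% lower. With an adjusted p of 0.05 or less, 42 were higher and 22 lower, against 40.3% and 45.6% of all tested genes. The members' median log2 fold change was 0.48 and that of all genes -0.10, and on library totals the members' median was -0.40, with 0 called higher and 22 lower. Without Cadict replicate 2, 13 were called higher and 7 lower. Copa, at 1.04 ± 0.05, was called here and not against Ctrl (0.85), and likewise Cope (1.02 and 0.91) and Trappc6a (1.44 and 0.89). Cope lost its call against Cu-Cys without Cadict replicate 2 (0.96), without Cadict replicate 1 or Cu-Cys replicate 2, and with either other filter on low counts. Of all genes called between the treated groups, 44.1% were higher with TMM, 10.8% with library totals and 48.9% with DESeq2 size factors. The comparisons share libraries and are not independent.

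**Figure D4:**
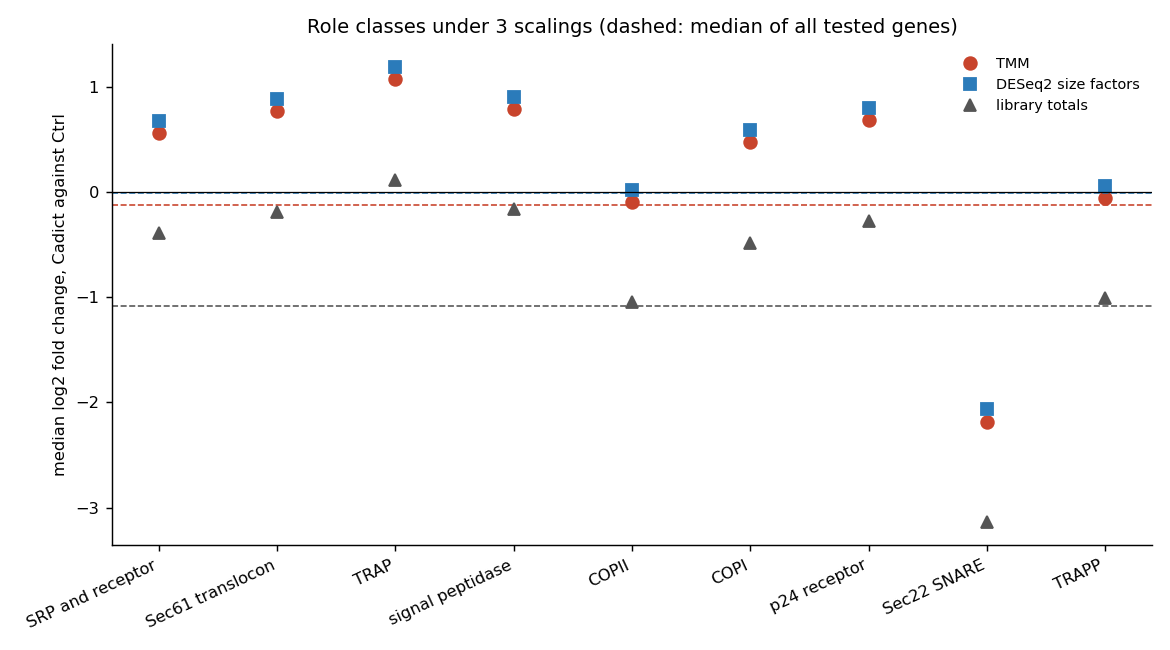
Median log2 fold change of each role class in Cadict against Ctrl (vertical axis) under 3 scalings, with the median of all tested genes as a dashed line per scaling. The distance of each class from its dashed line is nearly the same under all 3, since a scaling shifts all genes nearly alike. On library totals every class but TRAP (0.12) has a median below 0.

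Transcript length moved with the fold change. Over the 70 tested members, the Spearman correlation of log2 fold change in Cadict against Ctrl with effective length was -0.37, and -0.22 over 10870 tested genes with a length, all from the same libraries. All tested genes with a length were split into 4 length classes of equal number. In the class with the shortest transcripts (up to 1512 bases) the all-gene median was 0.45, and in the longer classes it was -0.18, -0.36 and -0.43. Of the 26 members in the shortest class, 10 were called higher and 1 lower, where 32.0% and 17.1% of all genes of that class were. Set against the all-gene median of their own length class, the members' median was 0.46, that of the translocon genes 0.92, of COPI 0.33, of COPII 0.30 and of TRAPP 0.06. Cadict replicate 2 was the highest of the 3 Cadict libraries for 25 of these 26 short members and the lowest for 8 of the 12 longest. The part of length and RNA quality in these fold changes was not tested.

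**Figure D5:**
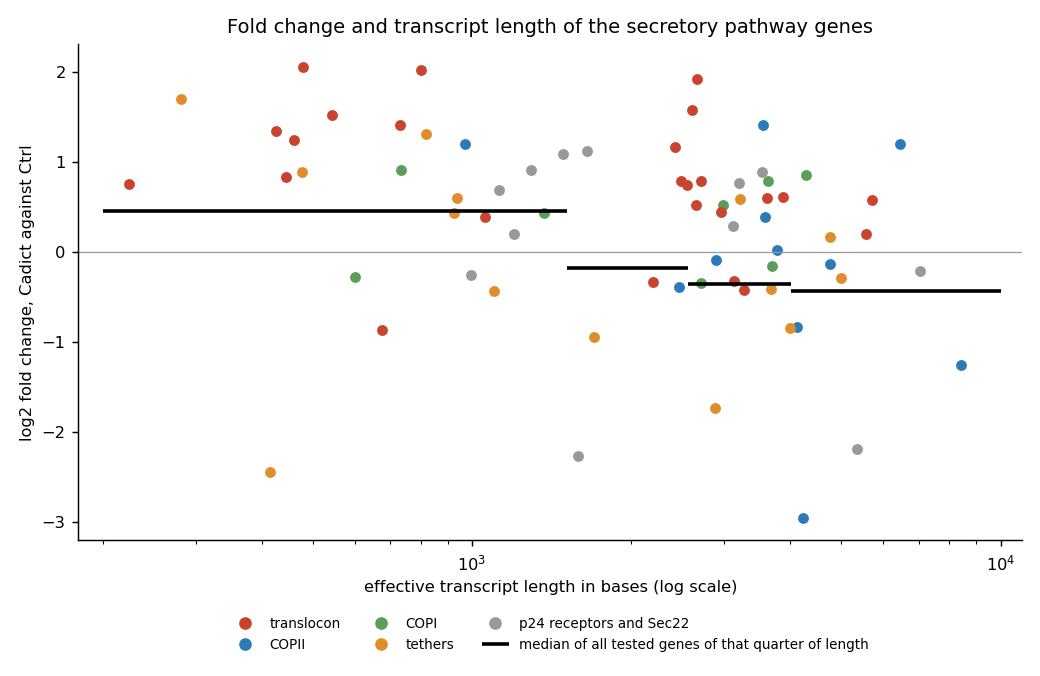
Log2 fold change in Cadict against Ctrl (vertical axis, TMM scaling) against effective transcript length in bases (log axis) for the 70 tested members, coloured by branch. Black bars are the medians of all tested genes in each length class, 0.45, -0.18, -0.36 and -0.43 from short to long. On library totals all values would lie about 0.95 lower.

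Genes that work beside these were followed as 7 lists of 87 genes, 86 of them tested. In Cadict against Ctrl, 25 were called higher and 13 lower, or 29.1% and 15.1%, next to 20.7% and 27.1% of all tested genes, with a median log2 fold change of 0.45. On library totals 2 were called higher and 29 lower, with a median of -0.50, and the counts per list below are on the TMM scale. The ER membrane complex (EMC), an insertase for membrane proteins, had the highest list median at 1.25, with 5 of 9 called higher, Emc7 at 1.92 and Emc4 at 1.74, and stayed above 0 on library totals (0.30). The oligosaccharyltransferase (OST) genes, which attach N-glycans, had a median of 0.84 (-0.11 on library totals), 3 of 12 called higher and Tusc3 at 1.47. The GET genes, which insert tail-anchored proteins, had a median of 0.55 (-0.40 on library totals), with Get3 at 1.61 and Get1 at -2.31. Cargo and retrieval receptors had a median of 0.64 (-0.31 on library totals) and 7 of 15 called higher, with Bcap31 at 2.01, while among the KDEL receptors Kdelr2 stood at 1.43 and Kdelr1 at -0.86.

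The GTPases that start coat assembly and their regulators had a median near that of all genes, -0.08 on the TMM scale, -1.03 on library totals and 0.04 with DESeq2 size factors. Of these 15, 5 were called higher and 4 lower, or 33.3% and 26.7%, next to 20.7% and 27.1% of all tested genes. Sar1a and Sar1b, which start COPII, had log2 fold changes of 1.17 and 1.19, and Arf1 and Arf4, which start COPI, 1.64 and 1.54, whereas Arf3 had -1.40 and Gbf1, an activator of Arf1, -1.26. Arcn1, the delta subunit of COPI that the symbol rule leaves out, fell by 0.81. SNAREs and Rabs had a median of 0.48 (-0.47 on library totals) and 3 of 13 called higher, with Rab1a, the GTPase that TRAPP activates, at 1.92. Other tethers, among them the COG complex, had a median of -0.81, below 0 under all 3 scalings, with 0 of 15 called higher and 7 lower, such as Cog8 at -2.05. With Cu-Cys, 0 of the 86 were called by edgeR, and at an unadjusted p under 0.05 27 were higher and 16 lower, or 31.4% and 18.6%, next to 26.5% and 26.0% of all tested genes.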

How the data were processed

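RNA of 9 libraries of MC38 cells was sequenced, 3 per group. Per the file headers, the authors deposited 1 table that gives, per gene and library, unnormalized expected counts estimated from the reads, and FPKM and TPM values, which are scaled for length and depth. The submitters' processing notes name HISAT2 2.1.0, Bowtie2 2.3.4.3 and RSEM 1.3.1 and the builds GRCm39 and GRCh38.p13, without saying which step used which, and strandedness is not given in the sources used here. The labels name DMSO, a column kit and DNA nanoballs, the study's methods PBS, TRIzol and Illumina. Columns CC and CCGE were read as Cu-Cys, by its initials, and Cadict, inferred from its components. Deposited size-factor counts and group averages were not used.

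Expected counts, of which 15.5% of genes had a non-whole value in some library, were rounded and fitted in R 4.3.3 with edgeR 4.0.16 (filterByExpr by group, TMM, a single quasi-likelihood model of the 3 groups), with Benjamini-Hochberg adjustment over 11949 genes. The call threshold is that of the study. On data simulated for Cadict against Ctrl, with 11782 genes tested, 200 of 200 changed genes and 0 unchanged genes were called. Only these 200 genes were changed there, whereas most tested genes differed between Cadict and Ctrl cells. The share of missed or false calls in the real libraries was not tested. FPKM served only to derive effective lengths, and TPM only to compare genes within a library. DESeq2 1.42.0, other scalings and filters, a replicate block and leaving out single libraries were alternatives. Shared sequence and exon overlap were computed on GENCODE M21 (GRCm38). The members and lists were chosen with earlier results of these data known. Per-gene values were given by rule for the highest and lowest member of each class with a mean of at least 10 CPM, paralog families and the pair Copb1 and Copb2, Sec61b and Sec61g, and the 3 smallest adjusted p-values with Cu-Cys. Other members named (such as Srpr, Srp14, Srp19, Srp68, Sec13, Sec22c, Sec62, Ssr2, Tmed4, Copa, Trappc4 and Trappc5) and the genes named from the 7 added lists were chosen after their values were seen. Several count ratios set the highest against the lowest member of a class in Cadict against Ctrl. These were Srprb to Srp72, Ssr4 to Ssr1, Sec11a to Spcs1, Sec22b to Sec22a and Trappc2l to Trappc1. Their wide gaps between Cadict and Ctrl cells follow from that choice. The ratios Sec13 to Sec16a, Copa to Copb2 and Sec22b to Sec22c set the highest or lowest gene named for a class against one chosen after its values were seen. The gaps of these ratios follow largely from the choice as well.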

Additional observations from a re-analysis of the deposited data

How the results depend on the processing

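The scaling changed most. On library totals, 2 members were called higher with Cadict than in Ctrl and 24 were called lower. Relative to Cu-Cys, Cadict then had 0 higher calls and 22 lower ones, while 11 members rose and 21 fell with Cu-Cys relative to Ctrl. The members' medians on library totals were -0.43 for Cadict and -0.039 for Cu-Cys, both against Ctrl, and -0.40 between the treated groups, the order kept below. Of the 39 members named by rule, 14 turned direction on library totals in Cadict against Ctrl: Copb1 to -0.43, Cope to -0.042, Copg1 to -0.17, Copz1 to -0.53, Sec11c to -0.13, Sec23a to -0.93, Sec31a to -0.56, Sec61a1 to -0.17, Sec61b to -0.20, Sec63 to -0.37, Ssr1 to -0.76, Trappc3 to -0.53, Trappc6a to -0.065 and Trappc6b to -0.36. These turns follow from the shift that library totals give to all genes. The medians were 0.64, 0.056 and 0.57 with DESeq2 size factors, 0.64, 0.056 and 0.58 with DESeq2's Wald test, and 0.46, 0.00614 and 0.45 among members with at least 10 counts in every library, where fewer genes were tested. With no filter on low counts the medians of the Cadict comparisons were 0.44 and 0.39. Between Cadict and Cu-Cys, the calls went from 17 higher and 6 lower to 14 and 6 with at least 10 counts, losing Cope, Tmed2 and Trappc4 while Sec16b was no longer tested, and to 13 and 8 with no filter, losing Copa, Cope, Tmed2 and Trappc4. DESeq2 size factors and the Wald test each gave 20 higher calls relative to Ctrl and 18 relative to Cu-Cys. Leaving out single libraries gave medians of 0.49 to 0.53, 0.018 to 0.048 and 0.46 to 0.51 in the same order, 9 to 24 members that rose and 10 to 17 that fell with Cu-Cys, and 13 to 17 called higher and 6 to 7 called lower between Cadict and Cu-Cys. Without Cadict replicate 2, Sec61g (log2 fold change 0.90), Cope (0.96), Srp14 and Trappc4 lost their call in that last comparison, and without Cadict replicate 1 Copa, Cope and Tmed2 did, without Cu-Cys replicate 1 Tmed2 and without Cu-Cys replicate 2 Cope. Low counts kept Sec31b, Tmed6 and Tmed10-ps out of the tests.

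Same-numbered replicates showed little shared deviation (correlations from -0.15 to 0.15 over 9706 genes). With 3 libraries per group such values cannot tell whether same-numbered libraries shared a culture or batch. The main fit did not use the numbers. With the replicate block, 22, 0 and 23 members were called, as without it, and over all genes the calls went from 5707 to 5685, 196 to 183 and 5041 to 5019.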
